A study of Mus musculus with 5 samples.

Results

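Slc39a11, Sdk2, Septin9, Dnah17 and Rbfox3 are 5 protein-coding genes of mouse chromosome 11, each under 500 kb long, that were picked for the number of CTCF peaks in their bodies. The gene body is the stretch between the first and last annotated base in RefSeq, and a peak was counted in a body when its midpoint lay there. The 5 genes were chosen by that count among genes under 500 kb on chromosome 11, which holds 1602 of the 21779 protein-coding genes. Together their bodies held 95 of the 22756 peaks of the deposited list, over 1389.51 kb. They are the 5 highest counts among chromosome 11 genes under 500 kb, so the counts themselves are a description and support nothing.

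The assay was ChIP-seq, in which chromatin held by an antibody against CTCF is sequenced, in mouse NIH3T3 embryonic fibroblasts. All cells stably carried H2B-mCherry, the rtTA3G transactivator and a TRE3G-controlled, doxycycline-inducible CDX2 gene. The libraries were 2 of CTCF_Dox, from cells given doxycycline for 6 h at a dose labelled 500 ng/µL, 2 of CTCF_noDox, from cells without it, and 1 input without doxycycline. Drosophila chromatin with an H2Av antibody was added as a spike-in, and whether the line is 1 clone is not stated. The deposited values are 1 list of peak intervals in which the authors had joined both conditions, so no peak could be tied to a condition or a replicate, and the effect of CDX2 was not tested. Read depth is unknown, there is no height or score per peak and no spread between replicates, and peak positions do not show which genes the cells express.

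CTCF is a zinc finger protein that binds DNA at insulators and at the anchors of chromatin loops, where it can halt cohesin. Many of its sites lie inside genes, in introns as well as near promoters, and a large part of them is shared between cell types. The 5 genes have unrelated products. Slc39a11 encodes ZIP11, a zinc transporter. Sdk2 encodes sidekick 2, an adhesion protein of the immunoglobulin superfamily that acts in the wiring of the retina. Septin9 encodes a GTP-binding septin of the cytoskeleton. Dnah17 encodes a heavy chain of the axonemal dynein motor of sperm tails, and Rbfox3 encodes the splicing factor known as the neuronal marker NeuN.

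Slc39a11 (gene 69806, minus strand, 113244851 to 113650200 on mm10) held 31 peaks over 405.35 kb, or 7.65 per 100 kb. Rbfox3 (gene 52897, minus strand, 118489760 to 118911597) is of nearly the same length, 421.84 kb, and held 18, or 4.27 per 100 kb. Dnah17 (gene 69926, minus strand, 118021723 to 118130719) also held 18, but over 108.997 kb, which made it the densest of the 5 at 16.5 per 100 kb. Sdk2 (gene 237979, minus strand, 113776374 to 114067029) held 15 over 290.66 kb, or 5.16 per 100 kb. Septin9 (gene 53860, plus strand, 117199661 to 117362325) held 13 over 162.67 kb, or 7.99 per 100 kb. By count Slc39a11 led and Septin9 came last, while by density Dnah17 led and Rbfox3 came last. Just outside the choice lay Myo18a, a gene of an unconventional myosin, with 12 peaks against 13 in Septin9, and then Sfi1 and Pitpnc1 with 10 each. When peaks narrower than the list's median of 262 bp were left out, Slc39a11 kept 14, Rbfox3 11, Dnah17 10, and Sdk2 and Septin9 8 each.

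**Figure D1:**
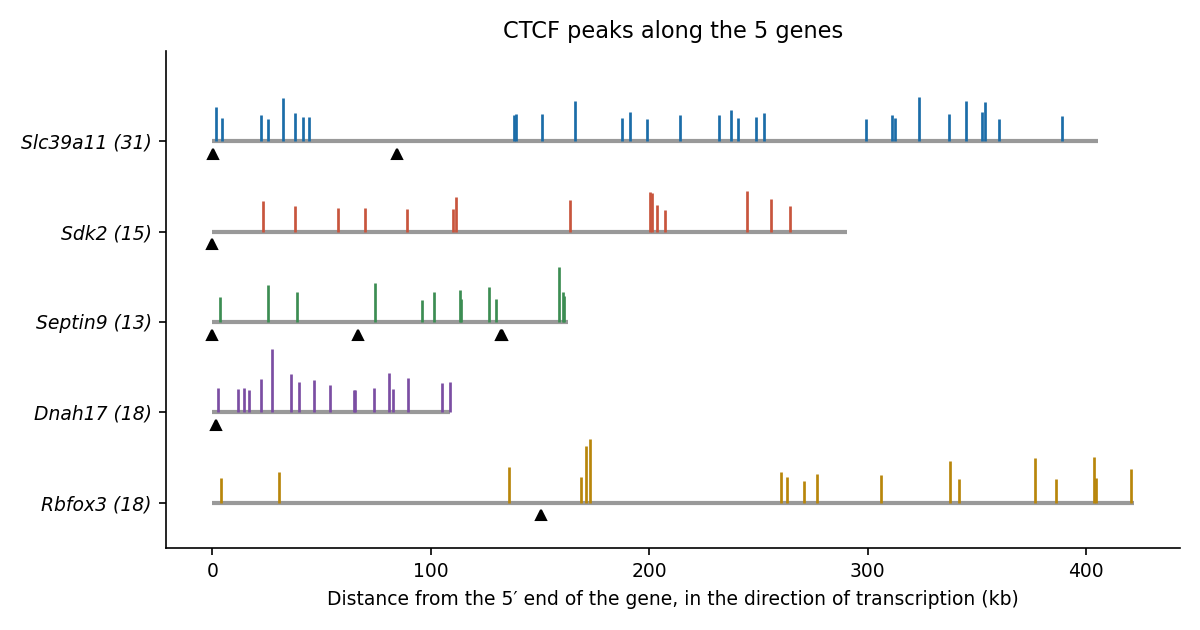
Peaks along the 5 genes, with the distance from the 5′ end in kb on the horizontal axis and 1 row per gene (number of peaks in brackets). Vertical lines are peaks, taller for wider peaks up to 800 bp, and triangles are the transcription starts listed by RefSeq; the long empty stretches of Rbfox3 (105.13 kb) and Slc39a11 (93.6 kb) stand out, and Dnah17 has none over 15.3 kb.

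Genes of similar length carried fewer peaks, as the choice of the 5 implies. Comparison genes were protein-coding genes from 2/3 to 1.5 times the length of each of the 5, without the 5 themselves. For Slc39a11, none of 25 such genes on chromosome 11 and none of 476 elsewhere had as many peaks. Their medians were 4 and 2, and the fullest were Kcnip1 and Bcas3 with 9 each and Skap1 with 8 on chromosome 11, and Cacna1a on chromosome 8 with 18, Gse1 on chromosome 8 with 14 and Dst on chromosome 1 with 13. For Rbfox3, none of 24 genes on chromosome 11 (median 4) and 1 of 442 elsewhere (median 2) reached 18, and that 1 was the calcium channel gene Cacna1a. For Sdk2, none of 36 on chromosome 11 (median 3) and 1 of 696 elsewhere (median 1), again Cacna1a, reached 15. The next on chromosome 11 were Pitpnc1 with 10, and Abr and Kcnip1 with 9 each.

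Septin9 and Dnah17 were compared with shorter genes. None of 67 genes on chromosome 11 (median 2) and none of 1380 elsewhere (median 1) had as many peaks as Septin9. The fullest were Cyfip2 and Abr with 9 each and Osbp2 with 7 on chromosome 11, and Sh3pxd2a on chromosome 19 with 12, 2900026A02Rik on chromosome 5 with 10 and the collagen gene Col26a1 on chromosome 5 with 9. None of 121 genes on chromosome 11 and none of 2039 elsewhere, both with a median of 1, had as many as Dnah17. Of these Myo18a had 12, Cyfip2 9 and Arhgap23 8 on chromosome 11, and 2900026A02Rik 10, Col26a1 9 and Tacc1 8 elsewhere.

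**Figure D2:**
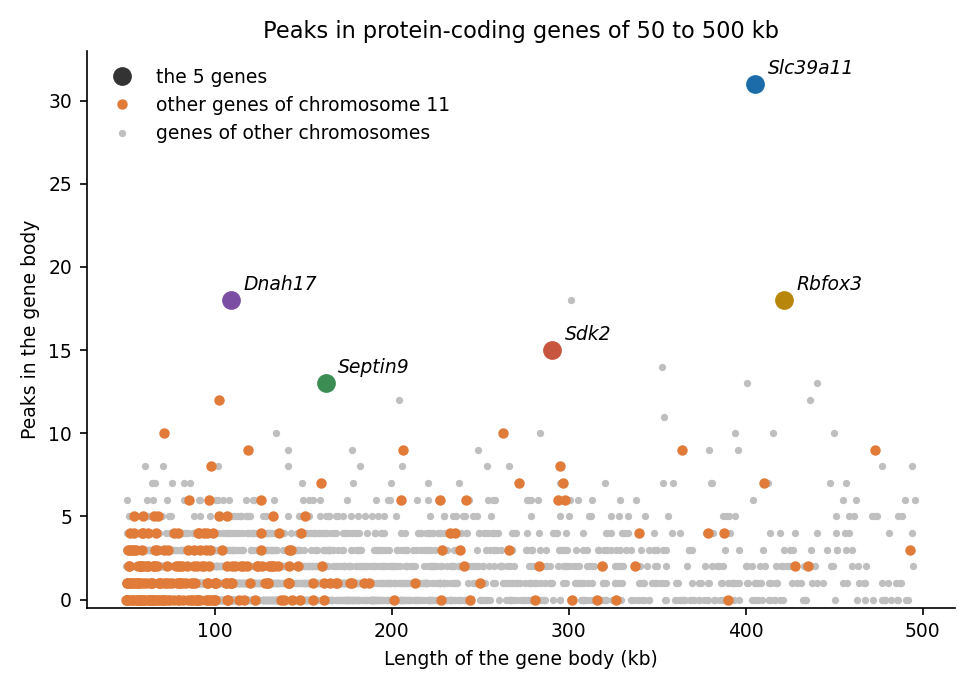
Number of CTCF peaks in the gene body against its length in kb for protein-coding genes of 50 to 500 kb. Large labelled points are the 5 genes, small orange points other genes of chromosome 11 and grey points genes of other chromosomes; Slc39a11 stands at 31 peaks, and the grey point at 18 is Cacna1a.

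Per length, the distance to comparison genes was widest for Dnah17 and smallest for Sdk2 and Rbfox3. Dnah17 had 9.32 times the peaks per length of its comparison genes on chromosome 11, which had 1.77 per 100 kb as a whole, and 16.5 times those elsewhere, which had 1.00. The ratios were 7.31 and 13.4 for Slc39a11, 5.57 and 9.04 for Septin9, 4.27 and 7.49 for Rbfox3, and 4.16 and 7.49 for Sdk2, on chromosome 11 and elsewhere. All 5 genes lie beyond 113 Mb, in the distal end of the chromosome. Against comparison genes of chromosome 11 from 95 Mb on, the ratio was 4.85 for Slc39a11 and 2.71 for Rbfox3, with only 5 such genes for either. It was 3.08 for Sdk2 (7 genes), 5.52 for Septin9 (10 genes) and 7.0 for Dnah17 (30 genes).

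The pooled bodies were no denser than the sequence between them. From the start of Slc39a11 to the end of Rbfox3, over 5.67 Mb, the list held 387 peaks. The 5 bodies had 6.84 peaks per 100 kb, and the remaining 4.28 Mb, with 292 peaks, had 6.83 per 100 kb. The single genes differed in this. Dnah17 had 16.5 per 100 kb in the body, against 2.75 in the upstream and 6.42 in the downstream flank of the same length. Slc39a11 had 7.65 in the body, against 4.44 upstream and 2.22 downstream, where the nearest protein-coding gene is Sox9, a regulator of cartilage and sex determination, 457.09 kb away.

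For Sdk2, Septin9 and Rbfox3 the flanks were close to the body or denser. Sdk2 had 5.16 per 100 kb, against 3.78 upstream and 4.82 downstream, and with flanks of 500 kb the ratio of body to flanks turned from 1.20 to 0.922. However, the downstream flank of 500 kb, with 33 peaks, takes in all peaks of Slc39a11 but its last. Septin9 had 7.99 per 100 kb, against 9.22 in either flank, and its ratio turned the other way, from 0.867 to 1.21 with flanks of 500 kb. Rbfox3 had 4.27 per 100 kb, against 7.11 in either flank, a ratio of 0.6, or 0.561 with flanks of 500 kb. Of 26 comparison genes on chromosome 11 with at least 5 peaks, 14 had more peaks per length in the body than in the flanks, with a median ratio of 1.17. Of these 26, 1 had a ratio of at least the 3.60 of Dnah17, 5 at least the 2.30 of Slc39a11 and 23 at least that of Rbfox3. On other chromosomes the median ratio was 1.67 over 169 genes, of which 125 lay above 1, 21 had at least the ratio of Dnah17, 56 that of Slc39a11 and 156 that of Rbfox3. Flanks can take in peaks of another of the 5 genes. The upstream flank of Slc39a11 of the same length, with 18 peaks, holds all 15 of Sdk2. The downstream flank of Sdk2 of the same length, with 14, holds the first 11 of Slc39a11 from its 5′ end. That of Rbfox3, with 30, holds the first 10 of Dnah17, and the downstream flank of 500 kb, with 40, all 18. Ratios without such peaks were not computed. No test was made, since the 5 genes were picked on the body count. The comparison genes of these ratios were also kept by their body count, at least 5 peaks, so they are not an unselected background.

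**Figure D3:**
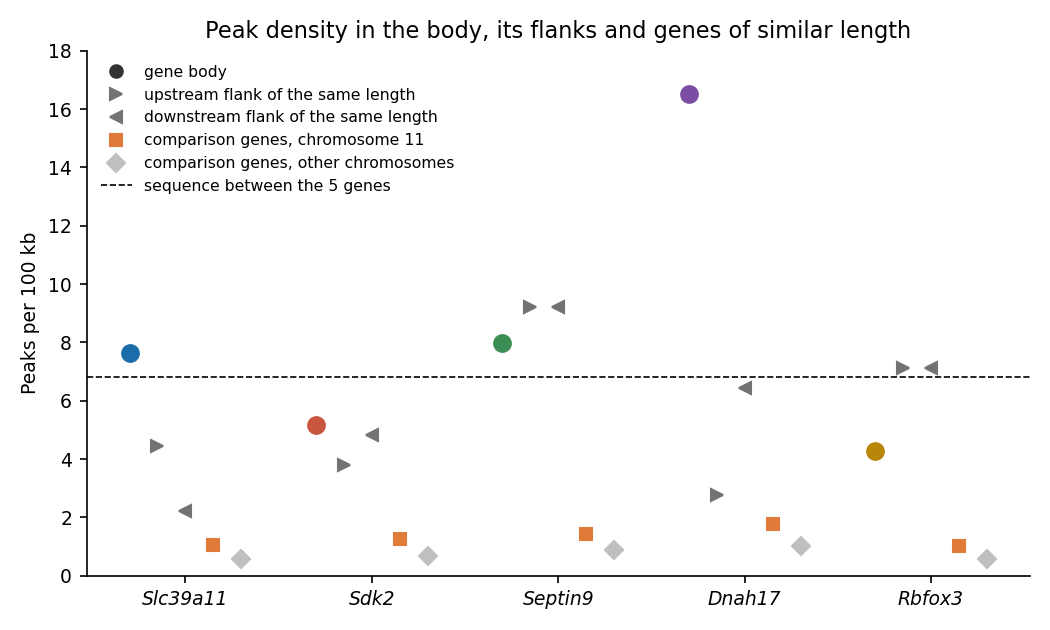
Peaks per 100 kb in the body of each of the 5 genes (round points), in the upstream and downstream flanks of the same length (grey triangles), and in comparison genes on chromosome 11 (squares) and other chromosomes (diamonds), pooled. The dashed line at 6.83 is the sequence between the 5 genes. Only Dnah17 and Slc39a11 lie above both of their flanks by more than 3 peaks per 100 kb. Flanks of Slc39a11, Sdk2 and Rbfox3 hold peaks of another of the 5 genes.

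In Slc39a11 the peaks formed blocks. The first 8 lay within 44.3 kb of the 5′ end, from 113605782 to 113648545, around the nested somatostatin receptor gene Sstr2 and next to the start of Cog1, a gene of a Golgi tethering complex. Next came a stretch of 93.6 kb without a peak. It holds the second transcription start that RefSeq lists for Slc39a11, at 113565815, which was 40.1 kb from the nearest peak. A further 13 peaks lay between 137.91 and 252.61 kb from the 5′ end, then 46.8 kb passed without one, and the last 10 lay between 299.43 and 389.22 kb. The most peaks within 50 kb were 8, reached by the first block and again at 113289908 to 113339026. Widths were 186 to 512 bp with a median of 256 bp. The widest, of 512 bp, lay at 113326423 to 113326934, and another of 503 bp at 113617382 to 113617884, 1694 bp from the listed start of Sstr2.

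Of the 95 peaks, 1 overlapped a listed promoter window (250 bases before to 50 after a start). It was peak 14 of Slc39a11, 298 bp at 113458680 to 113458977, over the start of the long non-coding RNA gene Gm51928, which is nested in Slc39a11 on the opposite strand. The window is printed because it is the sequence under a peak of the 5 genes that the promoter table holds, from RefSeq GRCm38.p6, plus strand, chr11:113458518-113458817, 5′ to 3′, with the 138 bases inside the peak in capitals.

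Gm51928 promoter window: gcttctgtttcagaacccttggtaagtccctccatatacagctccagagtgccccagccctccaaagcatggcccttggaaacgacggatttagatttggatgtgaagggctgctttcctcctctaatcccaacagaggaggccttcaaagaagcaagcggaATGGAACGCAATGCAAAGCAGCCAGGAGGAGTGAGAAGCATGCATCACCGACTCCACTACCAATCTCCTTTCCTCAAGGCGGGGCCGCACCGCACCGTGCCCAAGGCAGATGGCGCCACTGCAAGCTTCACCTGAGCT

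The letters AGNNGGCGC, part of the known CTCF core and searched on both strands, matched once in this window, as AGATGGCGC at bases 270 to 278, inside the peak. Of all 32851 listed promoter windows, 7.23% hold a match. The shorter AGNNGGC, which this match contains, was found 2 times in the window, 1 of them inside the peak, and 59.8% of all windows hold it. The letters were chosen after the window had been read, and a match in letters is not a binding site.

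In Sdk2 the first peak lay 23.3 kb inside the 5′ end and the last 26.1 kb before the 3′ end, so both margins were free. The 15 peaks were 183 to 469 bp wide, with a median of 265 bp and none of 500 bp or more. The 2 closest, of 454 and 441 bp, lay 705 bp apart at 113866334 to 113866787 and 113865635 to 113866075, in a group of 4 peaks that ends at 113859766. The longest stretch without a peak was 52.5 kb, between 111.45 and 163.97 kb from the 5′ end. The RefSeq start of Sdk2 was 3991 bp from the nearest peak, which lies outside the gene.

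In Septin9 peaks were fewer in the 5′ part. RefSeq lists several starts. Before the second, at 66.6 kb, there were 3 peaks, or 4.51 per 100 kb, and after it 10, or 10.4 per 100 kb. The last 3 peaks, of 673, 301 and 248 bp, lay within 4026 bp of the 3′ end, and a further peak lay 182 bp beyond that end. The peak of 673 bp, at 117357963 to 117358635, was the widest of the 13, whose median was 307 bp. Another close pair, of 332 and 201 bp, lay 577 bp apart at 117312969 to 117313811. The third listed start, at 117331715, was 2093 bp from the peak at 117329520 to 117329725.

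In Dnah17 the 18 peaks covered the body from end to end. The first lay 2.70 kb inside the 5′ end and the last 251 bp before the 3′ end, in the stretch that overlaps the end of Pgs1, a gene of phospholipid synthesis. No stretch without a peak exceeded 15.3 kb, and the fullest 50 kb held 9 peaks. Widths were 194 to 1780 bp with a median of 279 bp. The peak of 1780 bp, at 118102702 to 118104481, was the widest of all 95. Peaks covered 6.03% of the body of Dnah17, against 1.55% in Sdk2 and Rbfox3, 2.17% in Slc39a11 and 2.61% in Septin9.

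In Rbfox3 the peaks thickened towards the 3′ end. RefSeq's promoter table lists 1 start, at 118761041, which is 150.56 kb inside the annotated body. Upstream of it lay 3 peaks, or 1.99 per 100 kb, and downstream 15, or 5.53 per 100 kb. The start itself was 14.95 kb from the nearest peak. Stretches of 105.13 and 87.8 kb held no peak. Between them lay the 2 widest peaks of the gene, 702 and 800 bp at 118740034 to 118740735 and 118738414 to 118739213, which are 1571 bp apart. Of the 18 peaks 4 were at least 500 bp wide, and the median was 299.5 bp.

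Over the 5 genes, peaks were spread along the whole body. Each body was cut into 5 bins of equal length from the 5′ end, and the bins held 19, 14, 16, 24 and 22 of the 95 peaks, or 20.0%, 14.7%, 16.8%, 25.3% and 23.2%. In comparison genes of known strand on chromosome 11 the shares were 19.1%, 18.5%, 15.8%, 20.3% and 26.4% (330 peaks in 112 genes), and elsewhere 19.0%, 15.9%, 16.3%, 19.8% and 29.0% (3209 peaks in 1429 genes). A peak in overlapping comparison genes counts once for each of them. The last bin held more than the first in all 3 sets. In the 5 genes this rested on Rbfox3, which had 2 peaks in the first bin and 7 in the last: without it the last bin stood at 0.974 times an even share, against 1.16 with it. Slc39a11 had 8 in the first bin and 6 in the last, Dnah17 4 and 3, Sdk2 3 in both, and Septin9 2 and 3. With peaks of at least 262 bp only, the first bin fell to 0.588 times an even share, against 1.00 with all peaks. The last bin rose to 1.47 times, against 1.16.

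Spacing inside the bodies was uneven to a degree also found in comparison genes. Among the 5 it was most regular in Dnah17 when all peaks were counted. From one midpoint to the next, the median distance was 6.77 kb in Dnah17 and 7.30 kb in Slc39a11. It was 12.4 kb in Septin9, 13.6 kb in Sdk2 and 16.1 kb in Rbfox3. This is the order of peaks per length, except that Slc39a11 came before Septin9. Those 2 genes had similar mean distances, 12.9 kb in Slc39a11 and 13.1 kb in Septin9. The SD of these distances over their mean sets this scale aside. It was 0.597 in Dnah17, 0.892 in Septin9, 0.899 in Sdk2, 1.22 in Rbfox3 and 1.40 in Slc39a11. In 26 comparison genes on chromosome 11 with at least 5 peaks the median was 1.08 (quartiles 0.776 and 1.22), and in 170 elsewhere 0.955 (0.794 and 1.24). Overlapping genes were kept apart, so some of the 170 share the same distances, as Pcdha2, Pcdha3 and Pcdha4 do. Below Dnah17 lay 2 of the 26 and 16 of the 170, and below Slc39a11 22 and 149. These genes mostly have fewer distances than the 5. Among the 12 elsewhere with at least 10 peaks the median was 1.32, with none below Dnah17, 7 below Slc39a11 and 5 below Rbfox3. The 2 such genes on chromosome 11 had a median of 1.16. For the comparison genes of chromosome 11 from 95 Mb on, the median was 0.878, near the values of Septin9 and Sdk2. With peaks of at least 262 bp only, Septin9 was the most regular of the 5 at 0.644, before Dnah17 at 0.774. Rbfox3 then stood at 0.832, Sdk2 at 0.950 and Slc39a11 at 1.09. The longest stretch without a peak took 14.0% to 24.9% of the body in the 5 genes. In comparison genes with at least 5 peaks the median was 38.2% on chromosome 11 and 41.2% elsewhere. With at least 10 peaks required, it was 39.1% in the 2 genes on chromosome 11 and 34.9% in the 12 elsewhere. None of the 2 and 2 of the 12 lay below the 24.9% of Rbfox3. Comparison genes mostly have fewer peaks than the 5, and what this adds to the difference was not tested.

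Close pairs were few. Of 90 neighbouring distances in the 5 genes, 5 were under 1 kb and 51 under 10 kb (56.7%). Dnah17, with 15 of 17 under 10 kb (88.2%), and Slc39a11, with 18 of 30 (60.0%), held most of these, and the shares were 47.1% in Rbfox3, 41.7% in Septin9 and 35.7% in Sdk2. In the comparison genes 8 of 154 on chromosome 11 were under 1 kb (5.19%) and 40.9% under 10 kb, and elsewhere 3.74% and 34.7%. A pair that lies in overlapping comparison genes counts once for each of them. Under 10 kb were 65.0% in the 2 comparison genes on chromosome 11 with at least 10 peaks and 42.7% in the 12 elsewhere. Septin9 had 2 of the 5, Sdk2, Dnah17 and Rbfox3 1 each, and Slc39a11, with most peaks, none: its closest pair was 1211 bp apart, at 113510953 to 113512423.

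**Figure D4:**
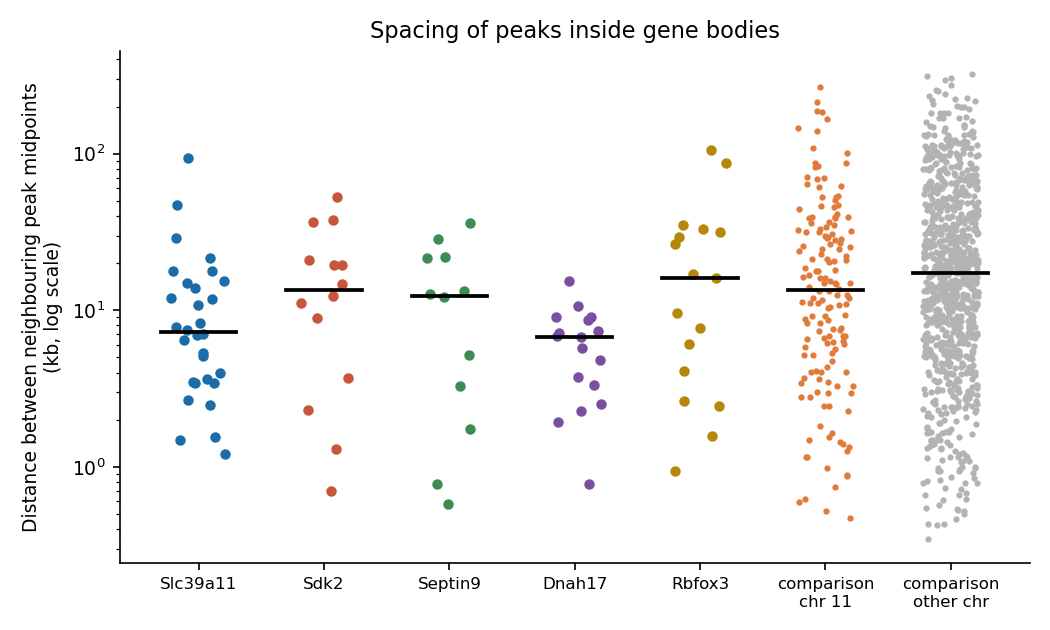
Distance between neighbouring peak midpoints in kb, on a log scale, for each of the 5 genes and for comparison genes with at least 5 peaks on chromosome 11 and on other chromosomes. Each point is 1 pair of neighbours in 1 gene, so comparison genes that overlap can repeat a pair. The bar is the median, 6.77 kb in Dnah17 and 16.1 kb in Rbfox3. Over the comparison genes it is 13.4 kb on chromosome 11 and 17.3 kb elsewhere.

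Peaks in the 5 genes were about as wide as those in comparison genes of the same chromosome. The 95 peaks had a median of 270 bp, with quartiles of 217 and 362.5 bp. Comparison genes had a median of 269 bp over 392 peaks on chromosome 11, with quartiles of 215 and 337 bp, and of 254 bp over 4164 peaks elsewhere, with quartiles of 215 and 301 bp. The 292 peaks between the 5 genes had a median of 284 bp (212 and 383.25 bp). At least 500 bp wide were 8 of the 95, or 8.42% (exact 95% interval 3.71 to 15.9%), against 9.93% between the genes (6.75 to 14.0%), 5.87% in comparison genes on chromosome 11 (3.76 to 8.67%) and 2.26% in those elsewhere (1.83 to 2.76%). No test was made of these shares. The intervals cover the counting of peaks only, and neighbouring peaks share their surroundings. Of the 8 wide peaks 4 lay in Rbfox3, 2 in Slc39a11, 1 in Septin9 and 1 in Dnah17.

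**Figure D5:**
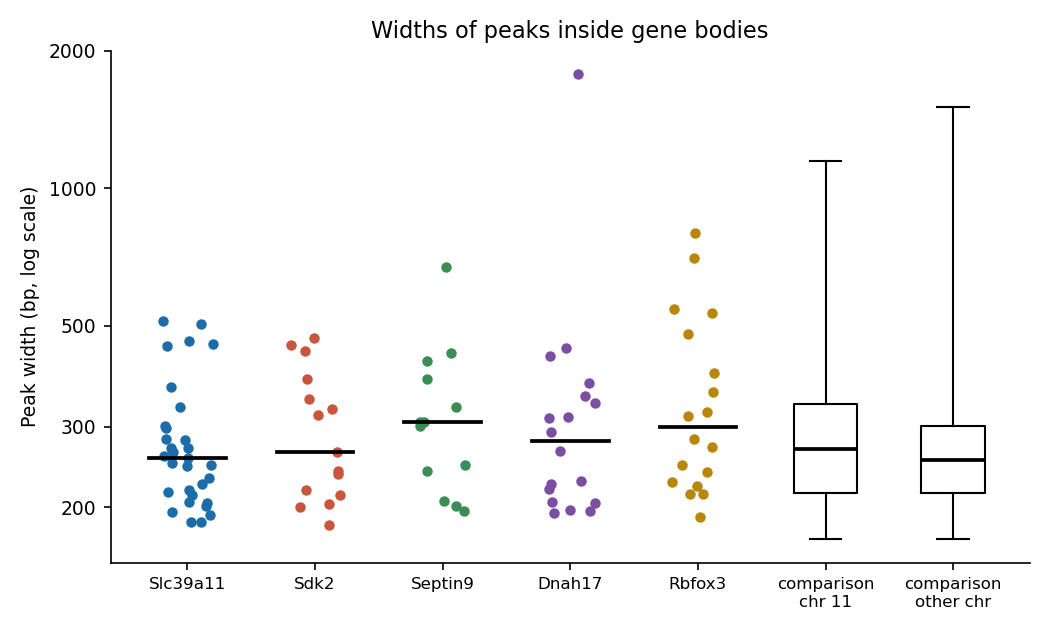
Peak widths in bp, on a log scale, in each of the 5 genes (points, with the median as a bar) and in comparison genes (boxes from the lower to the upper quartile with the median, whiskers to the narrowest and widest peak). Medians of the 5 genes run from 256 bp in Slc39a11 to 307 bp in Septin9, and the single point at 1780 bp is in Dnah17.

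Within 1 kb of either end a peak lay at 2 of the 5 genes, Septin9 and Dnah17, against 11.2% of 169 comparison genes on chromosome 11 and 10.8% of 3128 elsewhere. Among comparison genes with at least 5 peaks the shares were 15.4% of 26 and 24.1% of 170. Within 2.5 kb it was 4 of 5, all but Sdk2, against 26.0% on chromosome 11 and 18.6% elsewhere, or 34.6% and 39.4% of those with at least 5 peaks. Nothing is read from these counts, since 3 of the 4 peaks lie inside the bodies and were part of the count that the genes were picked on. The peak of Septin9 lies outside the body. For Septin9, Dnah17 and Rbfox3 the nearer end was the 3′ end, at 182, 251 and 1260 bp, and the 5′ ends were 3529, 2701 and 4122 bp from a peak. In Slc39a11 the nearer end was the 5′ end, at 1838 bp. Of the 95 peaks 6 (6.32%) lay within 2.5 kb of any listed start, against 6.63% in comparison genes on chromosome 11 and 7.06% elsewhere.

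The bodies overlap 14 other annotated genes, 11 of them long non-coding RNAs, and 9 of the 95 peaks lay in these. A peak lay within 1 kb of an end of 6: Gm51928, Gm51927, Gm42094 and Cog1 at Slc39a11, and Gm34065 and Gm51932 at Septin9. The same held for 29.8% of the 181 other annotated genes between the start of Slc39a11 and the end of Rbfox3, and for 8.29% of all other annotated genes. Overlapping genes lie in bodies picked for their peaks, so the count of 6 is a description. The distances were 60 bp for Gm51928, 371 bp for Gm42094, 452 bp for Gm51932, 628 bp for Gm34065, 816 bp for Cog1 and 822 bp for Gm51927. The remaining 8 had none so close, and these include Sstr2, Pgs1 and all 3 long non-coding RNA genes inside Sdk2. Among the nearest protein-coding neighbours that do not overlap, Socs3, a cytokine signalling inhibitor 51.4 kb from Dnah17, had a peak 241 bp from an end, and the ribosomal protein gene Rpl38, the nearest on that side of Sdk2 but 600.79 kb away, had 1 at 406 bp. Sox9, Fam104a, Cdc42ep4, Sec14l1, Tnrc6c, Cyth1, Engase and Enpp7, the remaining neighbours, had their nearest peak 1593 to 5581 bp from an end.

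Relatives of the 5 genes elsewhere in the genome had fewer peaks. Since the 5 were picked for their counts, this contrast is a description only. Of 14 other axonemal dynein heavy chain genes, most of them longer than Dnah17, 10 held a peak and together they had 0.807 per 100 kb, against 16.5 in Dnah17. Dnah8 had 9, Dnah10 4, Dnah5 and Dnah14 3 each, Dnah6 and Dnah9 2 each, and Dnah1, Dnah2, Dnah7b and Dnah12 1 each. Dnah3, Dnah7a, Dnah7c and Dnah11 had none. Dnah2 and Dnah9 also lie on chromosome 11, outside its distal end, and had 0.779 and 0.593 per 100 kb.

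Sdk1, the only relative of Sdk2, is 974.09 kb long and had 2 peaks, or 0.205 per 100 kb, against 5.16 in Sdk2. Rbfox1, of 1527.69 kb, had 12 peaks (0.786 per 100 kb) and Rbfox2 had 3 (1.31 per 100 kb), against 4.27 per 100 kb in Rbfox3. Of 13 other Slc39 zinc transporter genes, Slc39a8 had 3 peaks and Slc39a9, Slc39a10 and Slc39a13 1 each, and the other 9 had none. Together they had 1.34 per 100 kb, against 7.65 in Slc39a11. Of these only Slc39a13, of 8.66 kb, exceeded Slc39a11 per length, at 11.5 per 100 kb from its 1 peak.

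Among septins, too, some short relatives were denser than the long gene. Of 12 other septin genes, 7 held a peak, and together they had 2.51 per 100 kb, against 7.99 in Septin9. Septin1 and Septin5 had 3 each over 20.3 and 8.13 kb, or 14.8 and 36.9 per 100 kb, above Septin9. Septin12 had 1 over 10.995 kb, or 9.10 per 100 kb. Septin8 had 2, Septin3, Septin10 and Septin11 1 each, and Septin2, Septin4, Septin6, Septin7 and Septin14 none. In a gene of this size 1 peak decides the density.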

How the data were processed

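STAR, Picard, MACS2, mm10 and dm6 appear in the submitters' processing notes. For their versions and roles, the peak threshold, the joining of conditions and the use of the Drosophila spike-in, the sources used here give nothing. The deposited list gives chromosome, start and end of each peak, without height, score or sample, so depth per sample is unknown. Start positions were raised by 1 so that coordinates count from 1.

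Gene bodies came from RefSeq GRCm38.p6, the assembly behind mm10. Genes starting before 3 Mb were left out (except on chromosome Y), since no peak lies there. Strand came from the RefSeq promoter table, which matched 17492 of 21779 protein-coding genes, and windows on chromosome 18 were not used here. Values were computed with Python 3.11.15 and pandas 2.3.3, exact intervals with SciPy 1.17.1, and counting was tested on planted peaks. The planned sequence of peaks was not analysed, for lack of a genome.

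The 5 genes, families, comparisons and alternatives were chosen with earlier results of these data known. Named genes were the 5, their families, up to 3 comparison genes with most peaks for each of the 5 on chromosome 11 and elsewhere, overlapping genes whose end lies at most 1 kb from a peak, and protein-coding neighbours. Myo18a and Sfi1 were also named as the genes just outside the choice, and some other overlapping genes after their values were seen. No test was made: peaks and genes are not replicates, and the list has no samples. Alternatives changed how a peak belongs to a gene, minimum width, joining of peaks under 500 bp apart, the range of lengths, the region and type of comparison genes, flanks, bins and distances to gene ends.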

Additional observations from a re-analysis of the deposited data

How the results depend on the processing

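Of 160 alternative values for 40 results, 143 kept the direction and stayed within 1.5 times the value reported. A turn in direction means that a ratio crossed 1. For the SD of distances over their mean, crossing 1 was not counted as a turn. In Rbfox3 it went from 1.22 to 0.832 with peaks of at least 262 bp only. With peaks under the median width of 262 bp left out, the counts were 14 in Slc39a11, 8 in Sdk2, 8 in Septin9, 10 in Dnah17 and 11 in Rbfox3, the median distance between neighbours was 14.97 kb in Slc39a11, 36.5 kb in Sdk2 and 30.5 kb in Rbfox3, and the first bin stood at 0.588 times an even share. With comparison genes from 95 Mb on, the ratio per length was 4.85 for Slc39a11 and 2.71 for Rbfox3. With flanks of 500 kb the ratio of body to flanks turned to 0.922 for Sdk2 and 1.21 for Septin9. Of these, the flanks of Sdk2 take in all peaks of Slc39a11 but its last, and a ratio without those peaks was not computed. Without Rbfox3, left out after seeing the data, the last bin turned to 0.974 times an even share. With at least 10 peaks required, the median distance in comparison genes was 7.85 kb on chromosome 11 (2 genes) and 9.60 kb elsewhere (12 genes), since genes with more peaks have closer ones. Within 2.5 kb of an end, 4 of the 5 genes had a peak. Leaving out chromosomes X and Y, also added after seeing the data, kept each of the 5 ratios within that bound. No paired analysis was possible because the list joins all libraries, and for the same reason no replicate could be left out and doxycycline was not compared. Without heights or read counts, weak and strong peaks count alike, and whether stretches without a peak had reads is unknown.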
